A study of Mus musculus with 17 samples.

Results

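The 10 genes Per1, Per2, Per3, Cry1, Cry2, Arntl, Clock, Nr1d1, Nr1d2 and Dbp belong to the circadian clock, Dbp as an output of its loop. All 10 were found by symbol among the 23284 genes of the deposited count table. They were described in the mouse hypothalamus, profiled by Drop-seq, a droplet method in which barcodes mark the cell of each transcript and molecules are counted by their tags (unique molecular identifiers, UMIs). The mice were F1 hybrids labelled B6D2F1, from a C57BL6 female and a DBA2 male; 5 were fed normally and 3 were deprived of food for 24 hours, and no other agent or allele was labelled. The 17 libraries fall into 5 batches: batch 0 held normal mice 1 and 2, batch 1 normal mouse 3 and food-deprived mouse 1, batch 2 normal mouse 4 and food-deprived mouse 2, batch 3 normal mouse 5, and batch 4 food-deprived mouse 3. Age, sex and the time of day at which tissue was taken were not in the labels used here. Levels are set out per deposited cluster, with GABA8 and GABA9 against the other neurons and glia, and then by feeding state with the mouse as the replicate.

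The circadian clock is a feedback loop of transcription that runs in nearly every cell. CLOCK and BMAL1, the product of Arntl, bind together to E-box DNA (CACGTG and close relatives) and switch on the Per and Cry genes, whose proteins return to the nucleus and block that pair. An interlocking loop runs through Nr1d1 and Nr1d2, which encode the REV-ERB repressors of Arntl, and through the ROR receptors that oppose them. Dbp is an E-box target whose protein binds D-box DNA (TTATGTAA) and passes the rhythm on to output genes. In the hypothalamus the suprachiasmatic nucleus, a small paired nucleus of GABA neurons that make Avp or Vip, is the pacemaker of the body, and levels of most of these transcripts swing over the day.

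The promoters below are shown because they hold DNA words that clock proteins are known to bind; no binding was measured here. Each sequence is the 250 bases before a RefSeq start site (build GRCm38.p6), 5′ to 3′. Capitals mark CACGTG in Per1, CACGTG and AACGTG (the reverse complement of the E-box relative CACGTT) in Cry1, AACGTG in Nr1d1, both copies of TTATGTAA in Per3, and AGGTCA, the core of the site bound by REV-ERB and ROR, in Nr1d2.
Per1, chr11:69098699-69098948, plus strand: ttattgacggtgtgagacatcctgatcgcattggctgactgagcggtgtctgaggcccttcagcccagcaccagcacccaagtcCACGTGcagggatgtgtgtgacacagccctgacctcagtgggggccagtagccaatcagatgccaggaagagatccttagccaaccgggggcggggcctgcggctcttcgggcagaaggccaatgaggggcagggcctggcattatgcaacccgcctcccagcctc
Cry1, chr10:85185055-85185304, minus strand: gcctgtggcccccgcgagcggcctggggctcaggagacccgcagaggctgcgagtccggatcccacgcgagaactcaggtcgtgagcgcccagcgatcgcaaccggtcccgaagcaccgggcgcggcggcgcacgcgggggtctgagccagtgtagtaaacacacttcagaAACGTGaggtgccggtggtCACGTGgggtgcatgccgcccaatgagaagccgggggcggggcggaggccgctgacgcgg
Nr1d1, chr11:98775378-98775627, minus strand: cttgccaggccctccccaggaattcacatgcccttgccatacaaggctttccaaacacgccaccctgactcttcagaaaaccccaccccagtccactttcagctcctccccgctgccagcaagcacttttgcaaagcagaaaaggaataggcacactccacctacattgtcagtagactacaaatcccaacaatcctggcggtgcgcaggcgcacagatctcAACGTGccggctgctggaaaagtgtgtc
Per3, chr4:151044666-151044915, minus strand: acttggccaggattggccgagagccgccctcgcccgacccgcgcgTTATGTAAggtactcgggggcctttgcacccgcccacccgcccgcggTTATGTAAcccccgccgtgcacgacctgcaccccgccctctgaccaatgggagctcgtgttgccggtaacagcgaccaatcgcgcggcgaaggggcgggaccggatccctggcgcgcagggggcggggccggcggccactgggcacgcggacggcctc
Nr1d2, chr14:18239107-18239356, minus strand: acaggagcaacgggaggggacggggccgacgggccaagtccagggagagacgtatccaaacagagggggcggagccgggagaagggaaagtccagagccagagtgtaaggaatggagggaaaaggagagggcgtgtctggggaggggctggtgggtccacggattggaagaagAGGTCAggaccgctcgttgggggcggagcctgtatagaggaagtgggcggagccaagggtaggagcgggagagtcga

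Windows of 250 bases before to 50 after the start were searched on both strands for these words over 32851 promoters, of which 13 belonged to 9 of the clock genes (all but Per2). CACGTG was in 7.15% of all promoters and in those of Per1 and Cry1, with its first base at -166 and -60, counting -1 as the last base before the start. CACGTT was in 4.69% of all promoters and in those of Cry1 (-79), Cry2 (-166) and Nr1d1 (-28). TTATGTAA was in 0.938% of all promoters and stood at -205 and -158 in that of Per3. AGGTCA was in 16.3% of all promoters and in those of Per1 (-137), Arntl (32 after the start), Clock (-119) and Nr1d2 (-77). The cAMP response element TGACGTCA was in 1.79% of all promoters and in 0 of the 13. No matches in the clock promoters overlapped each other. A match is a run of letters, not a measured binding site.

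The cells used held 46904254 UMIs, from 290861 in 129 cells of normal mouse 1 to 12570644 in 3639 cells of food-deprived mouse 1, and median UMIs per cell ran from 1444 to 2389 over mice. By cell type the median was 2760.5 in GABA8, 2954 in GABA9, 4558 in the other neurons and 1300 in Astro, and its part in the differences between them was not tested. The libraries fell into 9 with Gapdh under 50 CPM (a gene's UMIs over all UMIs of the summed cells, scaled to 1 common total) and 8 above it, a split that crosses the groups: normal mice 1, 2 and 5 and food-deprived mouse 3 had only high-Gapdh libraries, normal mouse 3 only low-Gapdh ones, and the others both. The deposited classes held their own markers, with the myelin list at 119200 ± 11710 CPM in MO (SD, n = 8 mice), the astrocyte list at 14010 ± 1644 in Astro (n = 6) and the ependymal list at 13010 ± 1119 in Ependy (n = 6). Astro also held the myelin list at 1247 to 16530 CPM, and its part in the Astro levels was not tested. Over all joined cells the clock genes ranged from 574 UMIs (Per2) to 8755 UMIs (Dbp). The authors named the clusters from the expression of these same cells, so a p-value between clusters is not independent of that naming. Fewer cells of a subtype within a class and less RNA per cell cannot be told apart in summed counts.

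GABA8 (402 cells) and GABA9 (68 cells) held markers of the suprachiasmatic nucleus. In GABA8 the 14 markers summed to 15470 ± 5098 CPM (8455 to 22490, n = 7 mice), against 3024 ± 1474 in the other neurons, where Avp, the vasopressin gene, gave 2353 ± 1243. Avp alone does not single GABA8 out: with counts pooled over mice it was at 12900 CPM there and at 63970 CPM in Glu14. Avp also made up most of the GABA8 sum. Without it the pooled marker sum was 3469 CPM in GABA8, below GABA9 at 16530 and GABA3, one of the other neuronal clusters, at 5182. Of the 14 markers, 8 had GABA9 and 7 had GABA8 among their 2 highest neuronal clusters. Nms, a peptide gene of the nucleus, was at 616 ± 290 CPM in GABA8 and 3.46 ± 4.53 in the other neurons, and Vipr2, the receptor for VIP, at 334 ± 147 and 3.33 ± 1.94. In GABA9 Vip stood at 6439 and 22200 CPM in the 2 mice with at least 10 of its cells, and Lhx1, a transcription factor of the nucleus, at 382 and 1080 CPM. Other markers were not above the other neurons: in GABA9 Avp was at 55.8 and Prok2 at 15.3 CPM (21.5 in the other neurons), and in GABA8 Penk was at 172 ± 120 against 383 ± 272 CPM. Markers of other cells were low in GABA8 but for some lists above the other neurons: 98.8 ± 29.8 against 70.4 ± 26.9 CPM for the astrocyte list, 45.4 ± 46.0 (up to 149) against 16.3 ± 6.35 for the ependymal list, 71.2 ± 92.3 against 24.9 ± 15.2 for the OPC list and 20.7 ± 16.1 against 8.70 ± 5.17 for the microglial list. In Ependy itself its list was at 13010 CPM, and the part of these cells' RNA in the GABA8 levels was not tested.

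Clock genes of every arm of the loop were higher in GABA8 than in the other neurons of the same mice. In the 7 mice with at least 10 GABA8 cells, all 10 genes were called higher when every gene was kept in the fit, against 6.13% of 17477 genes called higher and 19% called in either direction (edgeR quasi-likelihood test with the mouse as block, adjusted p under 0.05). The median of the 10 log2 differences was 1.63, and that of all genes -0.30. With edgeR's filter on low counts, 5 of the 10 could be tested (Cry2, Clock, Nr1d1, Nr1d2 and Dbp) and all 5 were higher, against 18.7% of 4806 genes called higher. Normal mouse 2 had 13 GABA8 cells, so its values there rest on few UMIs. Without that mouse all 10 passed the filter and were called higher, against 16.5% of 7982 genes. A gene can pass this filter through its GABA8 counts alone, so these calls are not separate support for the fit of all genes. In the levels themselves 8 of the 10 stood above the other neurons in each of the 7 mice, while Per3 did so in 5 and Clock in 6. Fold changes of other comparisons, and of the wider clock list, are from fits with the filter unless another is named. For the 10 genes in GABA8 against the other neurons or glia they are from the fit of all genes unless another is named. The p-values of that fit depend on the genes kept and do not measure the spread over the 7 mice alone. Rora, a ROR receptor gene, had an edgeR adjusted p of 1.86e-16 with the filter (log2 difference 3.84, SE 0.18). In the fit of all genes it was 9.703e-102 (3.73, SE 0.17).

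Nr1d1, the REV-ERB alpha repressor, was at 413, 364, 225 and 130 CPM in GABA8 of normal mice 2, 3, 4 and 5, and at 444, 159 and 148 CPM in food-deprived mice 1, 2 and 3. The other neurons of these mice held 47.1, 61.5, 74.8, 24.7, 63.8, 55.8 and 26.5 CPM in that order. Every GABA8 value was above every value of the other neurons, with a log2 difference of 2.22 ± 0.16 (SE, adjusted p = 1.087e-43). Nr1d2, its paralog, reached 150, 170.3, 161 and 90.8 CPM in the normal mice and 132, 67.1 and 74.1 CPM in the food-deprived ones. The other neurons held Nr1d2 at 23.5 to 67.2 CPM in these mice, a smaller difference of 0.91 ± 0.18 (adjusted p = 1.011e-05), and the lowest GABA8 value lay just under the highest of theirs.

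Dbp, the D-box activator, was at 263, 736, 534 and 409 CPM in GABA8 of normal mice 2 to 5 and at 589, 360 and 283 CPM in food-deprived mice 1 to 3. The other neurons held 47.1 to 156 CPM, so the ranges did not overlap (log2 difference 1.89 ± 0.12, adjusted p = 1.547e-52). Dbp and Nr1d1 were both lower in GABA8 of normal mouse 5 and food-deprived mice 2 and 3 than in normal mouse 3 and food-deprived mouse 1.

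Among the repressors, Cry1 was at 37.6, 157, 264 and 84.3 CPM in GABA8 of the normal mice and at 128, 201 and 78.8 CPM in the food-deprived ones, against 15.7 to 38.7 CPM in the other neurons (2.28 ± 0.19, adjusted p = 7.096e-31). Only normal mouse 2 had a GABA8 value inside the range of the other neurons. Cry2, its paralog, differed less, at 78.8 to 199 CPM in GABA8 and 43.5 to 112 CPM in the other neurons (0.92 ± 0.17, adjusted p = 1.956e-06). Per2 was at 113, 55.2, 83.6 and 45.4 CPM in GABA8 of the normal mice and at 30.8, 49.4 and 27.8 CPM in the food-deprived ones. The other neurons held Per2 at 0 to 14.1 CPM, and each GABA8 value was above that range (2.69 ± 0.32, adjusted p = 3.663e-15). Per1, the Per gene most open to acute induction, was at 113, 101, 51.4 and 71.3 CPM in GABA8 of the normal mice and at 123, 67.1 and 27.8 CPM in the food-deprived ones. The other neurons held Per1 at 18.0 to 37.4 CPM, a range that took in only the value of food-deprived mouse 3 (1.37 ± 0.22, adjusted p = 2.589e-08). Per3 was lowest and least certain, at 0 to 64.4 CPM in GABA8 and 13.1 to 18.9 CPM in the other neurons. Its difference of 0.90 ± 0.32 (adjusted p = 0.02862) lost its call without normal mouse 3 (0.52, adjusted p = 0.4421), without normal mouse 4 (0.82, 0.08103) or food-deprived mouse 1 (0.90, 0.07019), and with DESeq2 (0.88, 0.1303).

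The activators stood out as well. Arntl was at 150.3, 78.2, 77.2 and 32.4 CPM in GABA8 of the normal mice and at 61.5, 95.3 and 88.0 CPM in the food-deprived ones. The highest, of normal mouse 2, rests on few UMIs. The other neurons held Arntl at 0 to 25.6 CPM, below every GABA8 value (1.92 ± 0.24, adjusted p = 3.06e-14). Clock, its partner, was at 37.6 to 88.0 CPM in GABA8 and 22.9 to 43.5 CPM in the other neurons (0.93 ± 0.23, adjusted p = 0.0006312). Arntl and its repressor Nr1d1, which peak at opposite times in a running clock, were both high in these summed cells.

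**Figure D1:**
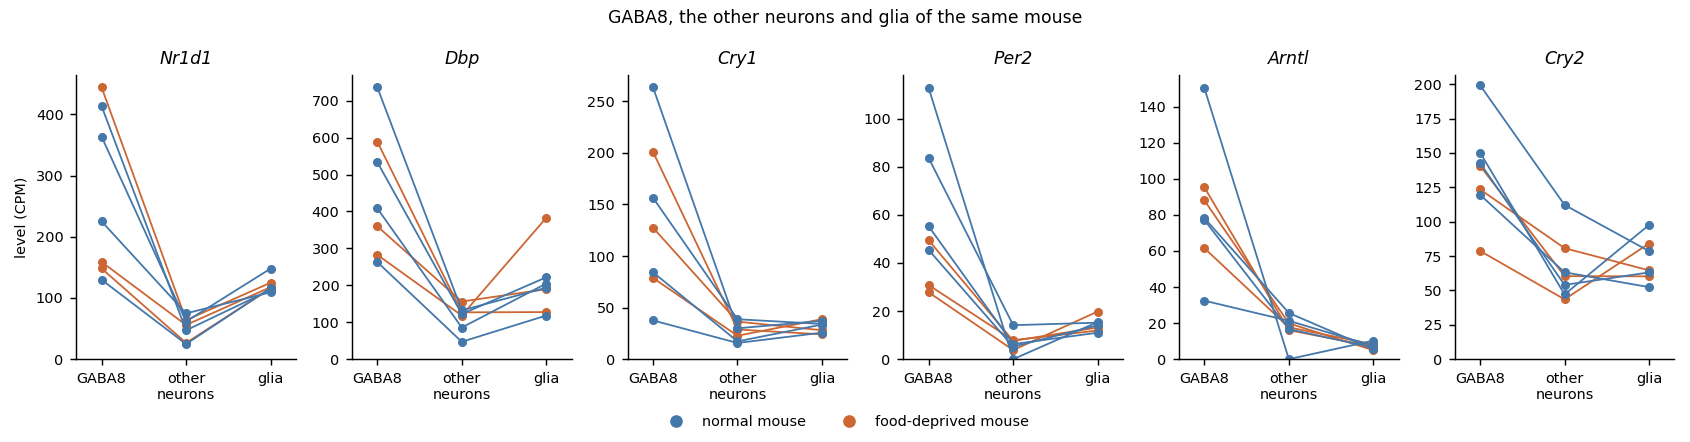
Level in CPM (vertical axes, linear, starting at 0) of 6 clock genes in GABA8, in the other neurons and in glia, with a line for each of the 7 mice (blue normal, orange food-deprived). For each of the 6 genes the GABA8 point lies above the other neurons' point in each of the 7 mice.

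Glia gave a different comparison for each gene. Against glia (MO, IMO, OPC, POPC, Astro, Tany, Ependy, SCO and Micro summed), 8 of the 10 genes were higher in GABA8 in the fit of all genes, where 13.2% of 18412 genes were called higher; the median was 0.92 and that of all genes -0.54. Arntl led at 3.30 ± 0.28 (adjusted p = 5.75e-30), followed by Cry1 at 2.04 ± 0.20 (4.407e-24) and Per2 at 1.66 ± 0.28 (4.479e-08). Per1 (-0.38 ± 0.20, adjusted p = 0.1307) and Per3 (-0.29 ± 0.28, adjusted p = 0.4799) were not called. With the filter, 5 were tested and Cry2, Nr1d1, Nr1d2 and Dbp were higher, against 31.4% of 4880 genes called higher and 31.1% lower. Without normal mouse 2, 8 were called there, where 24.9% of 8864 genes were called higher, 30.3% lower and 55.1% in either direction. With the filter, DESeq2 did not call Nr1d2 (0.42, adjusted p = 0.136) and called Per1 lower (-0.55, adjusted p = 0.0465). MO made up 36.0% to 50.1% of the glial cells in 7 mice and 10.2% in food-deprived mouse 3. With MO left out of glia and the filter kept, Nr1d1 (0.25), Nr1d2 (0.25) and Cry2 (0.36) were no longer called in GABA8, and Per1 (-0.80, edgeR, adjusted p = 0.000638) was lower there. Per3 (-0.83, edgeR, adjusted p = 0.006473) was lower in GABA8 in the fit of all genes without MO.

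With all neurons summed and the filter kept, 1 clock gene was called higher and 4 lower against glia. These shares were near or below those of all genes. Of all 11501 genes, 35.1% were called higher and 37.4% lower in neurons than in glia (72.5% in either direction). Among the clock genes, Arntl was higher (1.76 ± 0.19, adjusted p = 1.663e-06) and 4 were lower: Per1 (-1.48 ± 0.11, 3.009e-08), Per3 (-1.02 ± 0.15, 3.494e-05), Nr1d1 (-0.83 ± 0.17, 0.0005456) and Dbp (-0.46 ± 0.16, 0.01915). Arntl was higher in neurons in each of the 7 mice, and Per1, Per3 and Nr1d1 lower in each. Cry1 (0.32 ± 0.17), Cry2 (0.03 ± 0.14), Clock (0.33 ± 0.17), Per2 (-0.25 ± 0.21) and Nr1d2 (-0.18 ± 0.10) were not called. The call for Dbp was lost without food-deprived mouse 3 (-0.15, adjusted p = 0.3189), without normal mouse 5 (-0.38, 0.06064), in the low-Gapdh libraries (-0.08, 0.5873) and without the mouse as block (-0.51, 0.05006). The immediate early genes, a list of 12 that includes Fos, Egr1 and Nr4a1 and responds to acute stimulation, had 11 lower and 1 higher in neurons (median -1.57, against -0.02 for all genes), and their part in the Per1 difference was not tested.

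**Figure D2:**
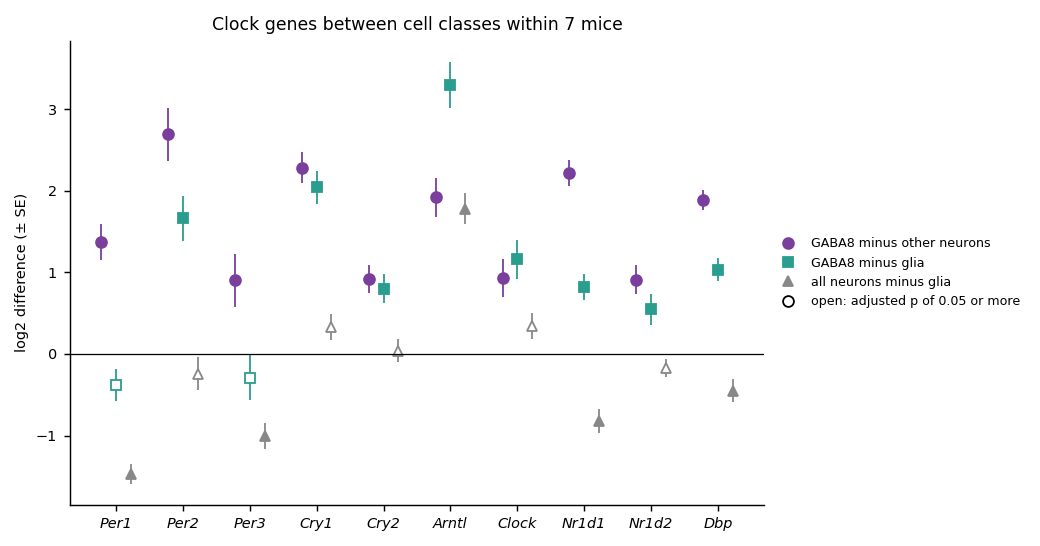
log2 difference with its SE (vertical axis) of the 10 clock genes between GABA8 and the other neurons (purple circles), GABA8 and glia (green squares) and all neurons and glia (grey triangles) within 7 mice, from fits that keep every gene. Filled symbols have an adjusted p under 0.05. All 10 purple circles are filled and above 0, while Per1 and Per3 against glia lie below 0.

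Across the classes the genes fell into different orders. A mouse entered a mean with 20 or more cells of the class (10 of GABA8). Nr1d1 was highest in Ependy, the ciliated cells that line the ventricle, at 325.6 ± 120.5 CPM (SD, n = 6), followed by GABA8 (269 ± 134, n = 7), Astro (259 ± 97.8, n = 6), Tany, the tanycytes of the ventricle floor (256 ± 88.3, n = 6), and Epith, which carries endothelial markers (243 ± 63.4, n = 6). Neighbours in that order differed by less than the larger of their SDs. Below Epith came a gap larger than the spread, to IMO (148 ± 70.4, n = 5), and MO was lowest at 29.9 ± 10.7 (n = 8). Dbp had the same 5 classes on top, from Ependy at 572 ± 160 CPM to Tany at 356 ± 80.2, with GABA8 ranked 3 at 453 ± 174, and was lowest in IMO at 24.9 ± 12.7. Nr1d2 ran from Epith at 143 ± 14.3 through GABA8 at 120.7 ± 42.8 to IMO at 28.3 ± 11.4 with no gap beyond the spread between neighbours.

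Per1 was led by Ependy at 272 ± 123 CPM, beyond its spread above Epith at 140.0 ± 52.9 and Micro at 139 ± 41.3 (n = 5). GABA8 ranked 6 at 79.2 ± 34.5 and Glu lowest at 24.0 ± 6.76. The immediate early list was also high in these classes, with sums of 17700 CPM in Ependy, 27520 in Epith, 25290 in Tany and 13830 in Micro, against 5594 ± 1128 in GABA8 and 4435 ± 1150 in the other neurons, and its part in the Per1 order was not tested. Per3 was highest in Astro at 82.5 ± 37.0, Tany at 71.2 ± 18.8 and Ependy at 56.9 ± 19.3 CPM, with GABA8 ranked 5 at 27.4 ± 20.9. Cry2 was at 145 ± 31.8 in Tany and 136 ± 36.5 in GABA8, with no gap beyond the spread down to Micro at 17.5 ± 10.4.

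Among these classes, GABA8 had the highest mean for Per2, Cry1, Arntl and Clock. Arntl was at 83.3 ± 36.0 CPM in GABA8, beyond the spread above Astro at 19.3 ± 10.2, Glu at 18.8 ± 5.30 and the other GABA neurons at 17.1 ± 9.01, and the remaining classes lay between 2.93 and 8.13. Cry1 was at 136 ± 78.2, beyond the spread above OPC, the oligodendrocyte precursors, at 55.8 ± 14.0. Clock was at 58.6 ± 20.7 against 35.1 ± 10.8 in Glu, and Per2 at 57.8 ± 30.4 against 34.9 ± 12.1 in Ependy, a gap within the spread. Per2 in MO was at 0.565 ± 0.803 CPM, beyond the spread below every other class. The sum of all 10 genes was 1559 ± 327 CPM in Ependy and 1421 ± 379 in GABA8, against 410 ± 91.8 in the other neurons and 222 ± 55.6 in MO.

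**Figure D3:**
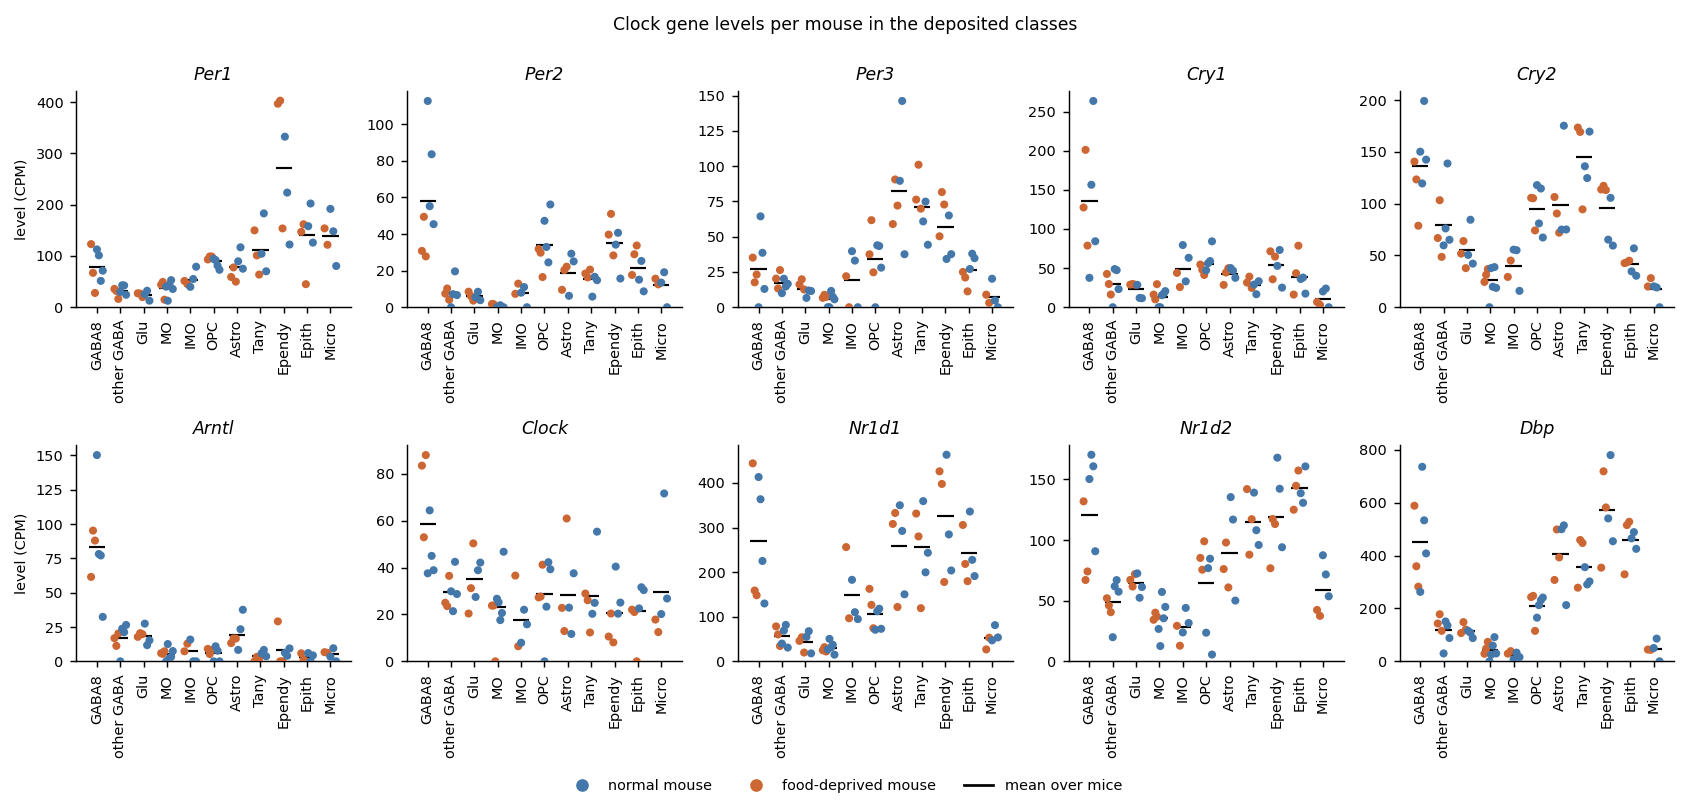
Level in CPM (vertical axes, linear, starting at 0) of each of the 10 clock genes per mouse in 11 cell classes (blue normal, orange food-deprived mice, bar the mean over mice). GABA8 has the highest mean for Per2, Cry1, Arntl and Clock, while Ependy leads for Per1, Nr1d1 and Dbp.

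Single clusters were compared next, with counts pooled over mice and exact Poisson intervals that cover counting error only. Per2 was highest of 46 clusters in GABA8 at 48.3 CPM (95% interval 37.0 to 61.9) and next in GABA9 at 44.2 (21.2 to 81.2). Cry1 followed the same order, at 149.6 CPM (129 to 172) in GABA8, 97.2 (60.9 to 147) in GABA9 and 84.8 (56.8 to 122) in GABA3. Arntl was at 76.3 CPM (62.0 to 93.0) in GABA8 and 22.1 (7.17 to 51.6) in GABA9, which ranked 10 of 46. Nr1d1 was at 255 CPM in GABA8 and 247 in GABA9, ranks 1 and 2 of 34 neuronal clusters, and the next, GABA2, was at 106.6. Dbp was at 475 CPM in GABA8, 309 in GABA9 and 256 in GABA7. Clock was higher in single clusters than in GABA8 (63.1, 50.1 to 78.4, rank 4 of 46), namely Glu3 at 132 CPM (63.3 to 243, from 13 cells), Glu11 at 71.0 (42.1 to 112) and GABA6 at 63.4 (35.5 to 104.5), with intervals that overlap that of GABA8. Cry2 was as high in other neuronal clusters, at 134.7 CPM in GABA13 (113.5 to 159), 134.3 in GABA7 (67.1 to 240.3) and 130.1 in GABA8 (111 to 151). Nr1d2 was at 128.1 CPM in GABA9 (85.8 to 184), 112.9 in GABA8 (95.3 to 132.9) and 101.7 in Glu5 (81.9 to 124.8). Per3 was at 72.7 CPM in Glu1 (23.6 to 169.7), 31.2 in GABA8 (22.3 to 42.4) and 31.0 in GABA10 (11.4 to 67.4). Per1 was at 79.5 CPM in GABA9 (47.1 to 125.7), 75.6 in GABA8 (61.3 to 92.2) and 73.3 in GABA7 (26.9 to 159.5).

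GABA9, the Vip-rich cluster, had few cells, and only food-deprived mice 1 and 3 reached 10, with 16 and 21. Nr1d1 was at 412 CPM in GABA9 of the first and 99.99 CPM in that of the second, and Dbp at 412 and 400 CPM. Both genes were higher than in the other neurons of the same mice, by 2.35 ± 0.51 for Nr1d1 (adjusted p = 0.0002531) and 1.61 ± 0.31 for Dbp (adjusted p = 2.005e-05). They were 2 of the 9 clock genes tested with the filter, where 1.56% of 7870 genes were called higher and 2.26% lower (3.82% in either direction). Per1 (1.60 ± 0.75, adjusted p = 0.295) and Cry1 (1.35 ± 0.73, 0.3994) were not called, nor was Per2 (3.45 ± 1.17, 0.1397) in the fit of all genes. The immediate early list had 7 of 11 genes higher in GABA9 than in the other neurons (median 1.50, all genes -0.20), and its part in the Per1 value was not tested.

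With the cell minimum lowered to 5 and no filter, 6 mice with 6 to 21 GABA9 cells entered, and the calls moved. Nr1d1 (1.80 ± 0.33, adjusted p = 8.317e-06), Per2 (2.11 ± 0.66, 0.03015) and Cry1 (1.36 ± 0.43, 0.03651) were higher, against 0.97% of genes called higher, and Dbp was no longer called (0.83 ± 0.28, 0.05313). Per2 rested on 2 mice, at 137 CPM in food-deprived mouse 1 and 26.7 in food-deprived mouse 2, and was at 0 in the other 4. Dbp was at 0 in GABA9 of normal mouse 5 and at 41.5 CPM in normal mouse 4, with 8 and 6 cells. Against GABA8 of the same mice, none of 7 clock genes was called with the main minimum, where 1.42% of genes were called higher and 1.27% lower (2.7% in either direction); with the lower minimum Dbp was lower in GABA9 (-1.04 ± 0.24, adjusted p = 0.001096), against 2.11% of genes called lower, and Arntl was not called (-1.96 ± 0.61, 0.05186).

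The wider clock list holds 38 further genes of the loop, such as its kinases, ligases and ROR receptors, and 36 were in the table. In GABA8 against the other neurons, 6 of the 21 tested with the filter were higher and 0 lower (median 0.17, all genes -0.01), beside 18.7% of all genes called higher and 19.4% lower. Rora and Rorb, which encode receptors that activate Arntl, rose most, by 3.84 ± 0.18 (adjusted p = 1.86e-16) and 3.11 ± 0.15 (1.95e-16). Rorb is also on the list of suprachiasmatic markers used above, so the 2 lists are not separate for it. Hlf, a PAR bZIP relative of Dbp, was higher by 1.72 ± 0.13 (5.941e-12), and Bhlhe40, a repressor of E-box transcription, by 0.62 ± 0.21 (0.02222). Nono (0.59) and Csnk1a1 (0.38) were the other 2. The calls moved with the filter. In the fit of all genes, where 6.13% of 17477 genes were called higher, Bhlhe40 and Csnk1a1 were not called. Fbxl21 (2.84 ± 0.32, edgeR, adjusted p = 1.894e-17), Bhlhe41 (1.44 ± 0.41), Prkaa2 (1.07 ± 0.27) and Gm129 (0.81 ± 0.24) were called higher there. In GABA9, Rora (2.78 ± 0.68, adjusted p = 0.002555) and Rorb (1.94 ± 0.60, 0.03601) were higher among 28 tested. Between all neurons and glia, 9 of 33 were higher and 8 lower, below the 35.1% and 37.4% of all genes, with Usp2, a deubiquitinase gene, at -2.20 ± 0.18 and Bhlhe40 at -1.44 ± 0.12.

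The genes most like each clock gene across the 25 clusters with at least 50 cells were found by Pearson's r of log2(CPM + 10), as a description over points that share libraries. Per1 was most like Nr4a1 (r = 0.90), Maff (0.89) and Hnrnpf (0.89), of which Nr4a1 is an immediate early gene. Nr1d1 was most like Myo10 (0.84), Bhlhe40 (0.81) and Pkd2 (0.81), and Dbp was like Zdhhc1 and Bhlhe40 (0.76 each). Cry1 was most like Wdr13 (0.79), Vipr2 (0.68) and Krt10 (0.67), Cry2 like Tmem216 (0.76), Cxadr (0.73) and 1700045I19Rik (0.72), and Nr1d2 like Coq10b (0.78), Lhfp (0.75) and Spsb2 (0.74). Among the clock genes themselves r was 0.84 for Nr1d2 with Dbp, 0.78 for Nr1d1 with Dbp, 0.68 for Arntl with Clock and -0.26 for Per1 with Arntl.

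Reads of several clock genes could be shared with a neighbour, since the sources used here do not give the use of strand in counting. In the GRCm38 annotation Nr1d1 (chr11:98767932-98775333, minus strand) overlaps Thra, a thyroid hormone receptor gene on the plus strand, by 1075 bases, and Dbp (chr7:45705088-45710203, plus strand) overlaps Sphk2 on the minus strand by 737 bases. Thra was at 122 ± 17.8 CPM in GABA8 and 192 ± 53.2 in the other neurons, the opposite order to Nr1d1, and was highest in IMO at 394 ± 73.6. Sphk2 was at 31.5 ± 23.3 CPM in GABA8 and 18.1 ± 10.6 in the other neurons, the same order as Dbp at a lower level. Per3 (chr4:151003652-151044665, minus strand) lies within Camta1 on the same strand, so strand cannot separate their overlap; Camta1 was at 374 ± 77.3 CPM in GABA8 and 425 ± 50.3 in the other neurons. Cry2 overlaps the antisense D930015M05Rik by 23417 bases, which had 24 UMIs in all, and Arntl and Clock overlap annotated genes that are not rows of the count table (Gm45355, and Ube2n-ps1 and Gm43658). Values of these genes are uncertain to that extent.

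Food deprivation was compared over mice within each class, which asks whether a day without food moved the clock genes. No clock gene was called in any of 11 classes or in GABA8 (edgeR, adjusted p under 0.05), where 0% of genes were called, 0 clock genes had an unadjusted p under 0.05, and DESeq2 called 0. In counts simulated for the MO comparison with a fixed spread, the test called 29.9% of genes with a true log2 difference of 1 in the right direction. At a true difference of 2 it called 95.7%. These rates are for genes drawn at random in MO with a spread set in advance, not for the clock genes or the other classes. Dbp in MO had an SD of 35.2 around 41.2 CPM in normal mice, so changes of either size could be missed. In all neurons the 10 genes had a median log2 difference of -0.08, with 3 positive and 7 negative, and in GABA8 9 genes had a median of -0.18, with 2 positive and 7 negative. Micro had 4 of 4 negative (median -0.45), Astro 7 of 7 (median -0.25) and MO 6 of 7 (median -0.18), and Ependy had 6 of 8 positive (median 0.29), beside medians of all genes between -0.01 and 0.01. In GABA9, with the cell minimum lowered to 5, Dbp was the only clock gene to pass the filter (1.26 ± 0.63, edgeR, adjusted p = 0.9971), and 0 of 783 genes were called. The smallest p in GABA8 belonged to Nr1d2, at -0.66 ± 0.32 (edgeR, adjusted p = 0.9995).

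Groups that did not overlap were few in either direction. Over the 11 classes and genes at 20 CPM or more, 2 of 84 pairs of clock gene and class were higher in every food-deprived mouse than in every normal one and 4 were lower, beside 4.49% higher and 4.46% lower of 76512 pairs over all genes. The higher ones were Cry1 in Glu, at 28.6, 11.8 and 11.5 CPM in normal and 28.9, 29.7 and 28.8 CPM in food-deprived mice (0.70 ± 0.36, adjusted p = 0.9997), and Cry2 in Ependy, at 65.3, 106 and 59.6 CPM against 114, 117 and 113 CPM (0.56 ± 0.29, adjusted p = 0.9781). The lower ones were Nr1d2 in Micro, at 87.5, 71.6 and 53.6 CPM in normal and 42.4 and 37.5 CPM in food-deprived mice (-0.85 ± 0.40, adjusted p = 1), Clock in Micro, at 20.2 to 71.6 against 12.5 to 17.8 CPM, and Per3 (27.1 to 37.9 against 11.2 to 25.0 CPM) and Clock (22.6 to 31.6 against 0 to 22.1 CPM) in Epith. None of these differences passed the test, and the counts lay near those of all genes.

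Dbp in MO, the class rich in myelin genes, moved with batch. It was at 0, 25.2, 59.4, 91.6 and 29.9 CPM in normal mice 1 to 5 and at 28.7, 48.1 and 73.8 CPM in food-deprived mice 1 to 3, so the groups overlapped (-0.54 ± 0.37, adjusted p = 1). Batches 1 and 2 hold a mouse of each group, and there Dbp was lower in the food-deprived mouse by a log2 difference of -1.03 and -0.92. With batch as a block it was at -1.0 ± 0.22 (edgeR, adjusted p = 0.1179), still not called, where 0.201% of genes were called in either direction. In the low-Gapdh libraries with the same block it was called, at -1.04 (edgeR, adjusted p = 0.02944), where 0.399% of genes were called in either direction. Those libraries come only from normal mice 3 and 4 and food-deprived mice 1 and 2, so that fit holds the same mice of batches 1 and 2. Without food-deprived mouse 1 or without normal mouse 4 the unblocked difference was -0.11. In MO the glucocorticoid-induced list had 14 of 14 genes positive (median 0.69, 0 called), and its part in the Dbp value was not tested.

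**Figure D4:**
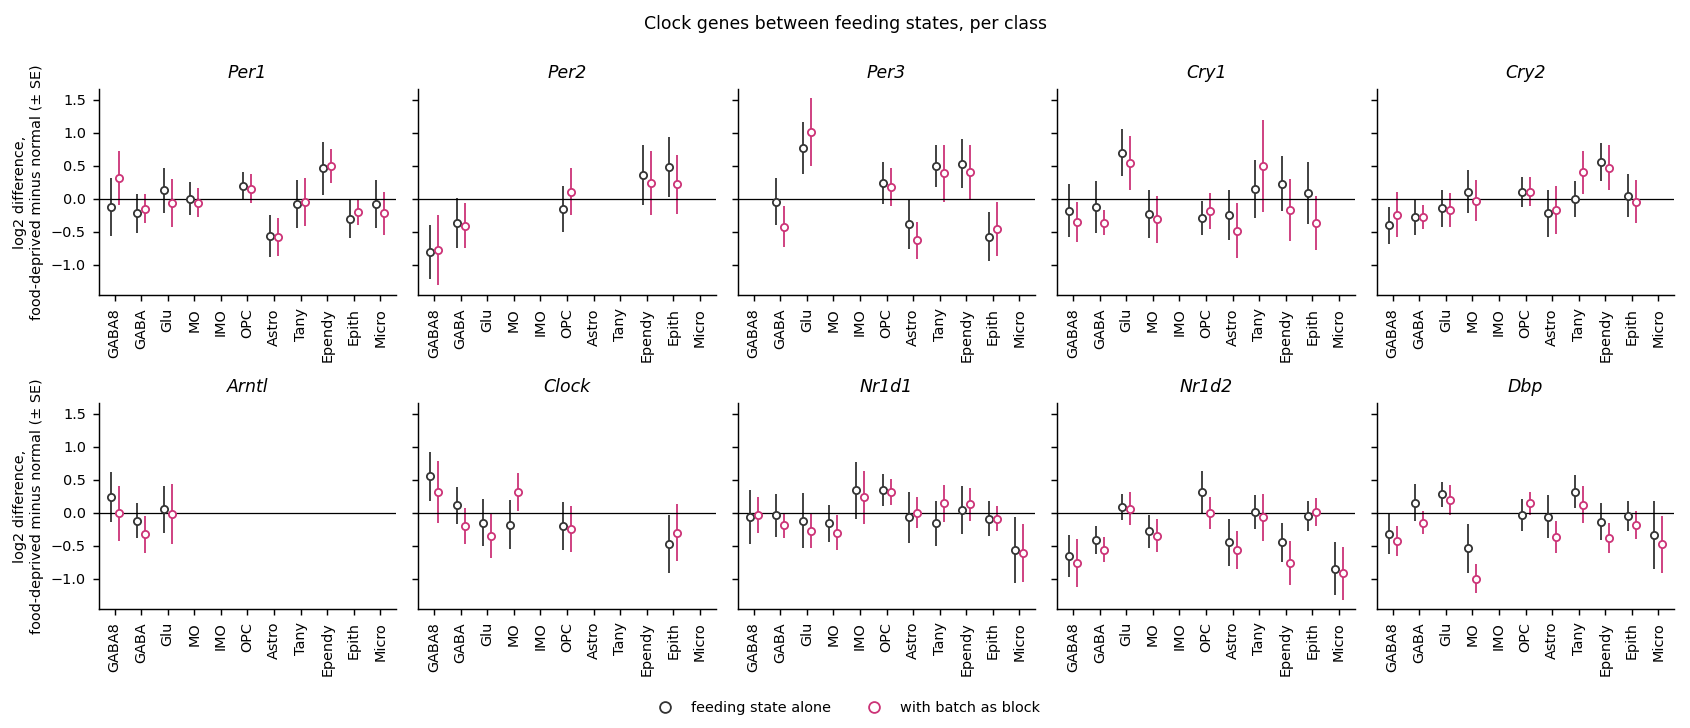
log2 difference with its SE between food-deprived and normal mice (vertical axes) of the clock genes tested in each class, with feeding alone and with batch as a block. No gene passed the adjusted threshold in either fit, and Dbp in MO moved from -0.54 to -1.0 with the block.

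Nr1d1 and Per1 differed between batches in a pattern that was chosen after their values were seen and was not tested. In all neurons Nr1d1 was at 97.6 and 101 CPM in normal mouse 3 and food-deprived mouse 1 of batch 1 and at 97.6 and 67.8 CPM in normal mouse 4 and food-deprived mouse 2 of batch 2, but at 33.0 CPM in normal mouse 5 of batch 3 and 49.1 CPM in food-deprived mouse 3 of batch 4. In Astro the batch 1 and 2 mice held 292 to 350.0 CPM, and the mice of batches 3 and 4 held 150.3 and 122 CPM. Across 9 classes the mice of batches 3 and 4 were both below all 4 mice of batches 1 and 2 in 8 for Nr1d1, 6 for Per1, 3 for Per2 and for Cry2, and 1 for Dbp. Over all genes at 20 CPM or more the share below was 10.01% to 20.09% of a class. Both were above all 4 in 2 classes for Clock and 1 each for Arntl, Cry1 and Nr1d2, beside 10.08% to 14.51% of all genes, and Cry1 was below in 2 and Per3 and Nr1d2 in 1 each. The classes come from the same mice, so these counts are not separate observations. The shares of all genes are for 1 class at a time, not for several together. The mice of batches 3 and 4 had only high-Gapdh libraries, and batch and time of collection cannot be told apart. Normal mouse 2 of batch 0 also had only a high-Gapdh library, and its Nr1d1 was high, at 110.3 CPM in all neurons and 413 CPM in GABA8. Within normal mouse 4 the 2 kinds of library gave Nr1d1 in neurons at 99.7 (low Gapdh) and 95.6 CPM, within food-deprived mouse 2 at 68.6 and 66.0, and within food-deprived mouse 1 at 105 and 61.9. In GABA8 (9 to 52 cells a value) Nr1d1 was lower with high Gapdh in each of these mice. In the same order they held 279.1 and 136.1, 186.5 and 104.4, and 493.2 and 171.9 CPM. Astro held 249.8 and 365.5, 341.2 and 307.3, and 323.2 and 200.9 CPM. The part of the kind of library in the batch pattern was not tested.

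**Figure D5:**
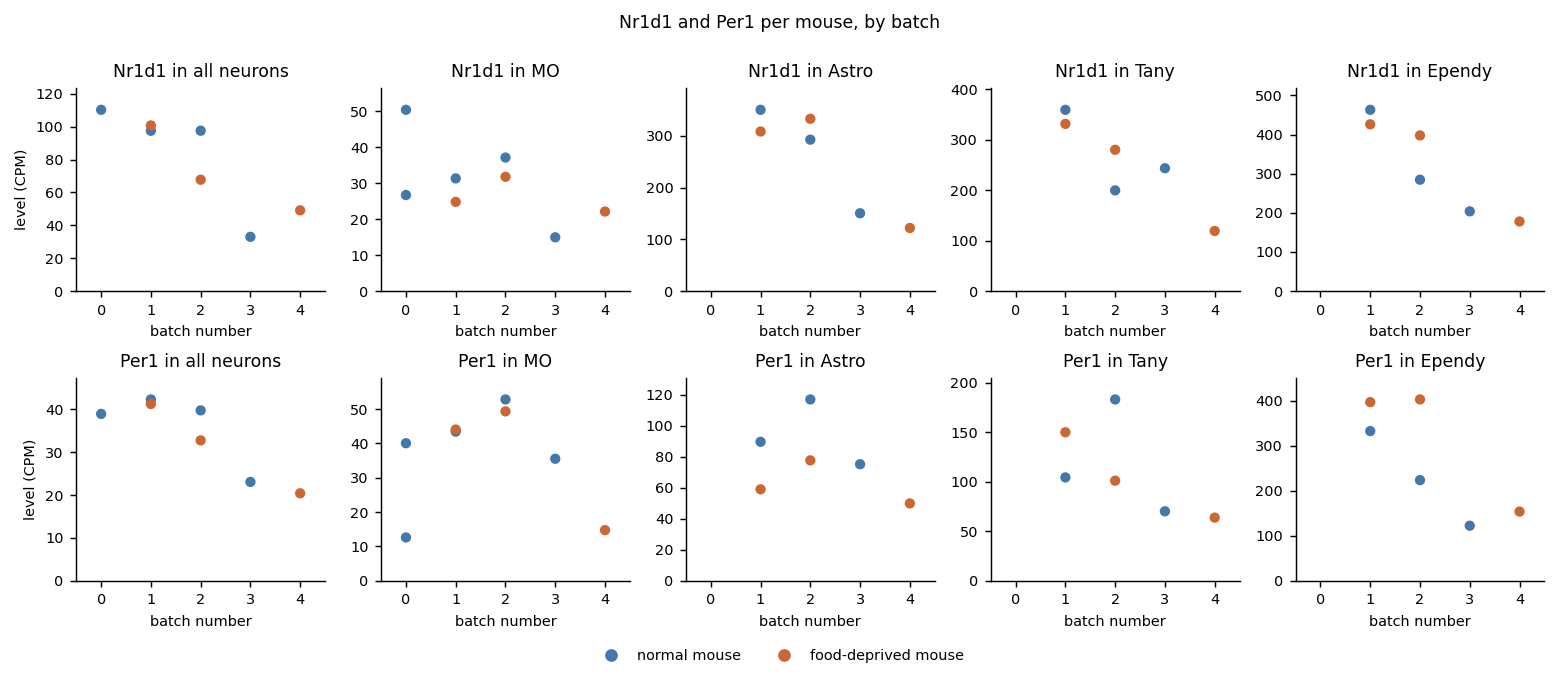
Level of Nr1d1 and Per1 in CPM (vertical axes, linear, starting at 0) per mouse by batch in all neurons, MO, Astro, Tany and Ependy (blue normal, orange food-deprived). In all neurons and Astro the Nr1d1 points of batches 3 and 4 lie below those of batches 1 and 2, whatever the feeding state.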

How the data were processed

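Drop-seq libraries of the hypothalamus of 8 mice were deposited as a table of counts per gene and cell, which holds UMIs not normalized by the authors, and a table of the authors' cluster names. Reads were mapped to mm9, per the submitters' processing notes; the aligner, counter and use of strand: not given in the sources used here. Clusters were named by the authors' deposited annotation, no doublet caller was run, and 14276 of 14437 annotated cells were joined; 161 were left out because libraries of 1 mouse share their barcode (0 are shared between mice).

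Counts were summed per mouse and class (at least 20 cells) or cluster (at least 10) and tested with edgeR 4.0.16 (R 4.3.3; TMM, filterByExpr, quasi-likelihood test, Benjamini-Hochberg adjustment over all genes), with the mouse as block between classes, since both sums come from the same mouse. Feeding was tested over mice, and with batch, from the labels, as block. DESeq2 1.42.0, other filters and scalings, and leaving out mice were alternatives. Levels are CPM of the plain totals. The edgeR fits were tested on simulated data. The genes and lists were chosen with earlier results of these data known. Every clock gene is named; of the wider list, up to 8 called genes per comparison may be named in order of p. Likeness names the 3 genes of highest r among genes reaching 100 CPM, which Per2, Per3, Arntl and Clock do not. A gene so chosen for Dbp is not reported here. Promoters are from RefSeq (GRCm38.p6); no GRCm38 coordinate was mixed with the files' mm9.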

Additional observations from a re-analysis of the deposited data

Results flagged for a closer look

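Per2 in MO was at 1.1 CPM in normal mouse 3, from 2 UMIs, and at 0 in the other 4 normal mice. With every other mouse at 0, any UMI would stand out in this way, and the food-deprived mice ran from 0 to 1.75 CPM. It was 1 of 40 groups of mice examined for such a sample, and chance flags about 1 in 20 groups.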

How the results depend on the processing

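In GABA8 against the other neurons 5 clock genes were called, against 10 with no filter, 9 in the low-Gapdh libraries and 4 to 10 when each mouse was left out. GABA8 against glia had 4 called, against 8 with no filter, 8 in the low-Gapdh libraries and 3 to 8 when each mouse was left out. The count between all neurons and glia was 5, against 8 with glia without MO, 4 with no replicate block and 5 to 7 when each mouse was left out. By feeding, 0 were called in MO, 0 with batch as the replicate block and 1 (Dbp) in the low-Gapdh libraries with that block, an alternative chosen after seeing the data; batch as a block changed no other call of a clock gene. The cause of these shifts was not tested, except that a filter leaves fewer genes to test.

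Values near 0 changed sign. Between all neurons and glia, Cry2 was at -0.05 with DESeq2, -0.02 with RLE factors, -0.16 with the lower cell minimum (10 cells of a class and 5 of a cluster), -0.30 with glia without MO and -0.07 to 0.31 when each mouse was left out (-0.02 without normal mouse 3 and without food-deprived mouse 2). Per2 was at 0.11 in the low-Gapdh libraries and at -0.40 to 0.04 when each mouse was left out, and Nr1d2 at -0.24 to 0.04, both highest without food-deprived mouse 3. In GABA9 against the other neurons Clock was at 0.21 with the lower cell minimum. In GABA9 against GABA8 Per1 was at -0.06 with no filter and Per2 at -0.56 with no filter and the lower minimum. Per3 in GABA8 against glia was at 0.12 in the low-Gapdh libraries and 0.09 in normal mice. Under the alternatives 638 single values kept their direction and side of the threshold, 15 changed sign, 20 gained a call and 19 lost it. Low-Gapdh libraries alone could not be fitted for feeding in IMO, Tany and Ependy or for GABA9, nor could normal mice or leaving out a mouse for GABA9. Feeding in GABA9 could be tested only with the cell minimum lowered to 5, chosen after seeing the data, and had 0 clock genes called under every setting run, each mouse left out included. Low-UMI genes such as Per2 and Per3 are limited by depth.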

Other observations

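The authors' unassigned cells, labelled zothers, held the 10 clock genes at a sum of 476 ± 69.4 CPM (SD, n = 6 mice), and the cluster labelled Macro at 561 ± 198 CPM (n = 3 mice).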
